A study of Rattus norvegicus with 30 samples.

Results

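The genes described here are target genes of p53, the transcription factor that responds to DNA damage and other stress, with Cdkn1a as the gene of main interest. They were chosen by name (Cdkn1a, Mdm2, Ccng1, Gdf15, Bax, Bbc3, Sesn2, Phlda3, Trp53inp1 and Btg2) and followed in rat lung to see whether Cdkn1a moved with the other p53 targets or alone. Of these 10 genes, 9 had a row among the 22914 genes of the count table, and all 9 had enough reads to be tested. Bbc3 was not found under its symbol or a synonym, and Trp53inp1 was listed under its rat symbol Tp53inp1.

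RNA-seq was performed on lung tissue of 30 male Sprague Dawley rats, 8 weeks old, with 3 rats in each of 10 groups and 1 library per rat. In the Sham groups the pancreas was only rotated, and in the Con groups sterile saline was infused into the biliopancreatic duct. The SAP groups received 5.0% sodium taurocholate by the same route, which induces severe acute pancreatitis with lung injury. The DEX and Emo groups received taurocholate and then either dexamethasone (DEX), a synthetic glucocorticoid, intravenously at 10 mg/kg, or emodin, an anthraquinone, into the stomach. The dose of emodin is 10 mg/kg in 1 field of the sample labels and 40 mg/kg in another. Both drugs were scheduled at 2 and 12 hours after the operation and lungs were taken at 6 or 24 hours, so the rats studied at 6 hours had received the first dose only. Rats not given a drug received its vehicle. Each group is named by its treatment and time, for example DEX-6h.

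When p53 is stabilised it binds a paired motif near its target genes and increases their transcription. Some targets stop the cell cycle (Cdkn1a, which encodes the cyclin-dependent kinase inhibitor p21, and Btg2, an antiproliferative factor). Others act back on p53 itself (Mdm2, the ubiquitin ligase that degrades p53, and Ccng1, cyclin G), promote cell death (Bax, a pore-forming BCL-2 family protein) or act in stress signalling (Gdf15, a secreted cytokine, Sesn2, a regulator of TORC1, Phlda3, an inhibitor of AKT, and Tp53inp1, a protein of autophagy and cell death). Several of these genes also have inducers other than p53: Cdkn1a responds to glucocorticoids, and Gdf15 and Sesn2 to ATF4 in the integrated stress response.

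Promoter sequences of 7 of the 10 genes were taken from RefSeq (assembly GRCr8, 250 bases before to 50 bases after the annotated start, 8 windows because Gdf15 has 2 starts). The windows were searched on both strands for the p53 half-site consensus and for the p53 full site, which is 2 half-sites without a spacer with at most 2 mismatches in all. They were also searched for AGAACA, a glucocorticoid receptor half-site, and for TGACGTCA, the cyclic AMP response element bound by factors of the CREB and ATF families. A full p53 site was found in the windows of Cdkn1a and Ccng1, each with 1 mismatch, and in 0.875% of the 33365 rat promoters of the same length. Relative to the start, the site of Cdkn1a lay at -201 to -182 and that of Ccng1 at -242 to -223, and each contained an exact half-site, which 7.98% of all promoters hold. Btg2 had TGACGTCA at -201 to -194 (1.83% of promoters), and the window of the second Gdf15 start had AGAACA on the reverse strand (20.6% of promoters). None of the 4 motifs was matched in the other windows, which says only that these letters are not in these stretches. The 3 windows that follow, of Cdkn1a, Ccng1 and Btg2, are those that held a full p53 site or TGACGTCA. Capitals mark the full p53 site in Cdkn1a and Ccng1 and TGACGTCA in Btg2.
Cdkn1a, chr20:7150682-7150981, plus strand: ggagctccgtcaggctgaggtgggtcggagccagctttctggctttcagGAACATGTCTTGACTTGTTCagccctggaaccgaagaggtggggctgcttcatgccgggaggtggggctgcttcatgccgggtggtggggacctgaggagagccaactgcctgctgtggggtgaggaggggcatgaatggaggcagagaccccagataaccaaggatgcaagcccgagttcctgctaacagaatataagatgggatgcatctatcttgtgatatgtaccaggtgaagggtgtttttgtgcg
Ccng1, chr10:25684827-25685126, minus strand: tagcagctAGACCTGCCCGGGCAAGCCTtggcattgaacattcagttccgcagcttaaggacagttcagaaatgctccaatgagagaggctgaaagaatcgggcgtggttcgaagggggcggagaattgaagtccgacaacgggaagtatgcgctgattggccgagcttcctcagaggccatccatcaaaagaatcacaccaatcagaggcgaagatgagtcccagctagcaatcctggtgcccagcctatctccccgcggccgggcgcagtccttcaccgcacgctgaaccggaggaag
Btg2, chr13:48087641-48087940, minus strand: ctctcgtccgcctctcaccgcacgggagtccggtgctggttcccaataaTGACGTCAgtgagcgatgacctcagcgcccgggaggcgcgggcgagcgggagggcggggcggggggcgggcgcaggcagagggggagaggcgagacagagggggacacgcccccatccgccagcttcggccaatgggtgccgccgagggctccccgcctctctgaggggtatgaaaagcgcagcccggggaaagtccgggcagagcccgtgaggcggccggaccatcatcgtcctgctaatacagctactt

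Levels are given as FPKM, read fragments scaled to transcript length and library depth, which allows genes to be compared per length. Cdkn1a and Btg2 were the most abundant of the 9 genes, with a median over all libraries of 96.6 and 96.5 FPKM. Phlda3 (49.8), Bax (28.7), Ccng1 (20.9), Sesn2 (14.9) and Mdm2 (12.6 FPKM) were intermediate, and Gdf15 (6.32) and Tp53inp1 (5.89 FPKM) were lowest. Cdkn1a was also the most variable gene. Its highest group mean was 6.59 times its lowest, compared with 1.55 times for Mdm2 and 3.70 times for Tp53inp1, the next most variable gene. Between rats of 1 group, the coefficient of variation of Cdkn1a averaged 32.8%, against 8.79% for Bax and 20.6% for Gdf15. In the files the other genes are Mdm2 (ENSRNOG00000006304, chromosome 7), Ccng1 (ENSRNOG00000003256, chromosome 10), Gdf15 (ENSRNOG00000019661, chromosome 16), Bax (ENSRNOG00000020876, chromosome 1), Sesn2 (ENSRNOG00000042785, chromosome 5), Phlda3 (ENSRNOG00000009068, chromosome 13), Tp53inp1 (ENSRNOG00000007964, chromosome 5) and Btg2 (ENSRNOG00000003300, chromosome 13). Reads on these genes in 1 library ranged from 55 for Tp53inp1 to 26595 for Cdkn1a.

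Cdkn1a (ENSRNOG00000000521, chromosome 20) had 362.29, 242.65 and 278.39 FPKM in the 3 rats of DEX-6h. Every one of these values lay above every other library, the next highest being 168.1 FPKM in SAP-24h. At 6 hours the other groups had 72.24, 103.52 and 48.32 FPKM in Sham-6h, 87.89, 71.95 and 89.97 in Con-6h, 130.53, 85.7 and 119.24 in SAP-6h, and 134.72, 87.99 and 152.4 in Emo-6h. These 4 groups overlapped with at least 1 other among them. At 24 hours the SAP rats had 168.1, 111.81 and 122.27 FPKM and the DEX rats 126.26, 145.35 and 166.19 FPKM. Both groups lay above all rats of Sham-24h (22.48, 103.23 and 47.49), Con-24h (51.13, 62.05 and 85.72) and Emo-24h (26.59, 23.13 and 84.27 FPKM). Replicate 2 of Sham-24h and replicate 3 of Emo-24h were far above the other rats of their groups. Ordered by group mean, the level of DEX-6h exceeded that of DEX-24h by more than the larger of the SDs, and so did SAP-6h that of Con-6h, whereas the 7 other steps between neighbours were within 1 SD.

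**Figure D1:**
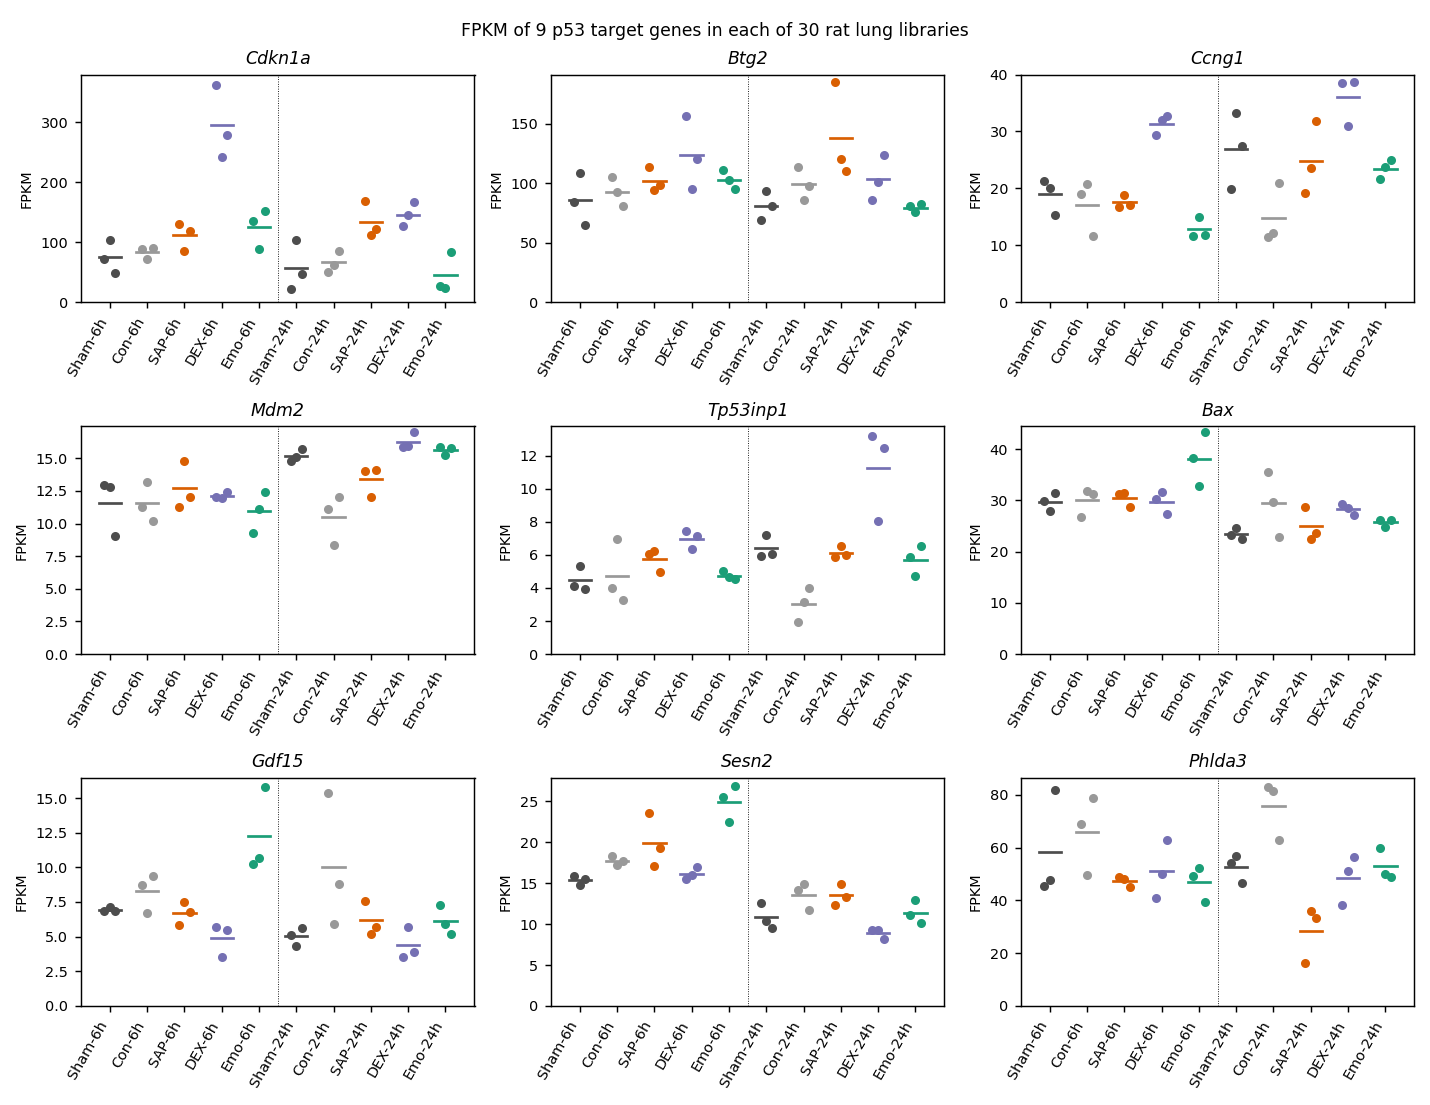
FPKM (linear axes from 0) of the 9 genes in each of the 30 libraries. Points are rats, horizontal lines are group means (n = 3), and the dotted line separates 6 from 24 hours. Cdkn1a peaked in DEX-6h (242.65 to 362.29 FPKM), Ccng1, Mdm2 and Tp53inp1 had their highest group mean in DEX-24h, and Gdf15, Sesn2 and Bax in Emo-6h.

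The other genes had other orders. Ccng1, Mdm2 and Tp53inp1 had their highest group mean in DEX-24h, with 36.1 ± 4.38, 16.3 ± 0.65 and 11.2 ± 2.78 FPKM (SD, n = 3). Gdf15, Sesn2 and Bax had theirs in Emo-6h, with 12.2 ± 3.11, 25.0 ± 2.24 and 38.1 ± 5.34 FPKM. Btg2 was highest in SAP-24h (138 ± 41.0 FPKM) and, like Cdkn1a, lowest in Emo-24h (79.5 ± 3.67 FPKM). Phlda3 was highest in Con-24h (75.8 ± 11.2) and lowest in SAP-24h (28.5 ± 10.8 FPKM). Most steps between neighbouring groups were within 1 SD, with 0 of 9 beyond it for Btg2, 1 or 2 of 9 for 6 further genes besides Cdkn1a, and 6 of 9 for Sesn2. Only for Cdkn1a, Mdm2 and Gdf15 was the order of the groups the same when CPM (counts scaled to library depth only) were used in place of FPKM.

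Group differences were tested on the read counts by quasi-likelihood in edgeR, and p-values were adjusted (Benjamini-Hochberg) over 15934 genes. Genes that reached an adjusted p under 0.05 together with 2-fold or more are called DEGs. In bulk lung, fewer cells of a type and less RNA per cell cannot be told apart. Cdkn1a was a DEG in 4 of the 21 pairwise comparisons, Gdf15 and Tp53inp1 in 3, Ccng1, Phlda3 and Sesn2 in 1, and Btg2, Mdm2 and Bax in 0. Tp53inp1 was a DEG together with Cdkn1a in Emo-24h vs DEX-24h, and Gdf15 and Sesn2 were in Emo-24h vs Emo-6h. Cdkn1a was the only DEG of the set in DEX-6h vs Sham-6h and in Emo-24h vs SAP-24h. There Ccng1 and Btg2, respectively, changed in the same direction at an adjusted p under 0.05 but by less than 2-fold. At an adjusted p under 0.05 without the fold limit, and with the 3 interaction contrasts included, Sesn2 passed 8 times, Tp53inp1 6, Ccng1 5, Cdkn1a and Mdm2 4, Gdf15 and Btg2 3, Phlda3 2 and Bax 1.

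**Figure D2:**
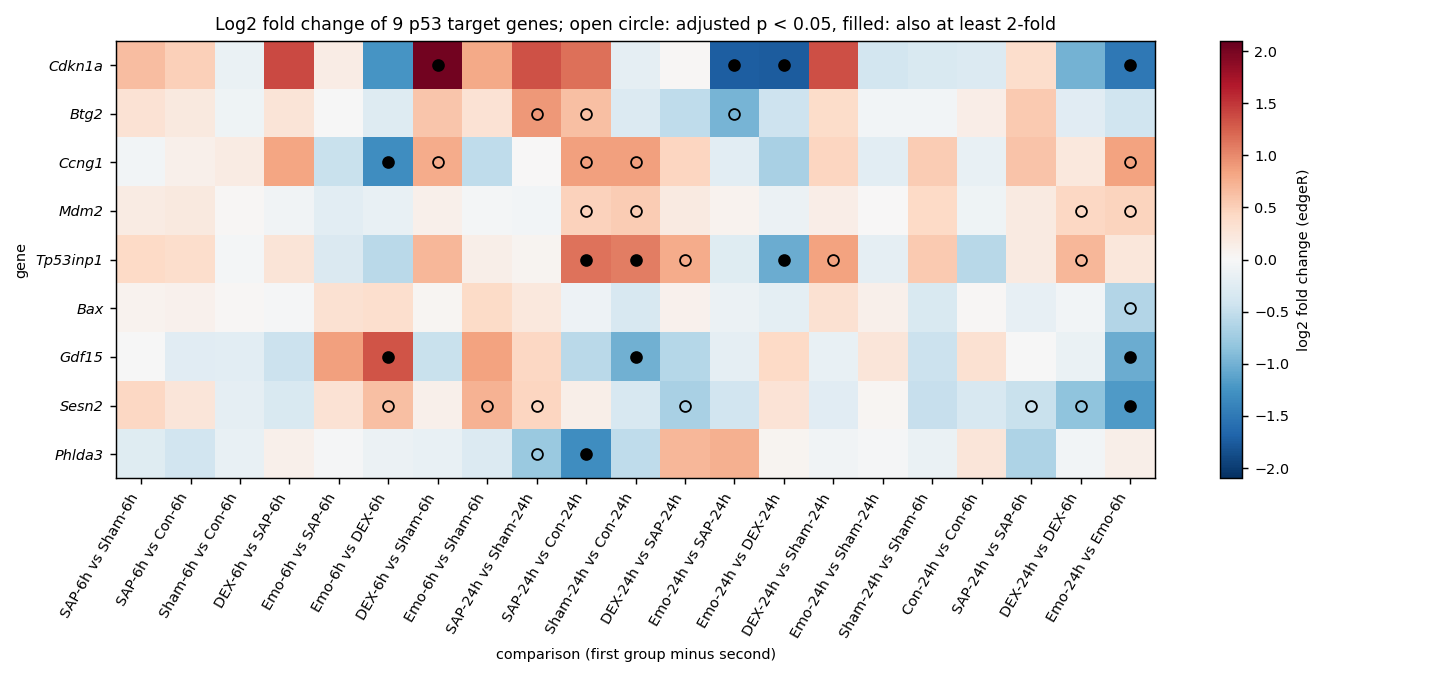
Log2 fold change (colour) of the 9 genes in 21 comparisons, first group minus second, from edgeR. Open circles mark an adjusted p under 0.05 and filled circles also 2-fold or more. Cdkn1a carries 4 filled circles, and Btg2, Mdm2 and Bax none.

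The SAP groups were compared with Sham and Con to see whether pancreatitis changed the p53 targets in lung. At 6 hours none of the 9 genes was a DEG in SAP-6h vs Sham-6h (0.220% of all genes were), and Sesn2 alone had an unadjusted p under 0.05, as did 13.1% of all genes. DEGs were also absent from the set in SAP-6h vs Con-6h (0.163% of all genes) and in Sham-6h vs Con-6h (0.00%), with no gene of the set at an unadjusted p under 0.05 in either (10.4% and 8.61% of all genes). DESeq2 also called 0 of 9 in these 3 comparisons, and 1.27%, 0.609% and 0.0440% of the genes it tested. Cdkn1a had 112 ± 23.3 FPKM in SAP-6h and 74.7 ± 27.7 in Sham-6h, and the groups overlapped (log2 fold change 0.64, 95% interval -0.30 to 1.59, adjusted p = 0.597).

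At 24 hours Btg2 and Sesn2 rose and Phlda3 fell in SAP-24h vs Sham-24h at an adjusted p under 0.05, all by less than 2-fold. Thus 0 of the 9 genes were DEGs (5.00% of all genes were, and 12.4% had an adjusted p under 0.05), while 4 had an unadjusted p under 0.05 (28.4% of all genes). Btg2 had 185.37, 120.06 and 109.91 FPKM in SAP-24h against 69.44, 93.24 and 80.99 FPKM in Sham-24h, with no overlap, as for 29.4% of all genes in this comparison and 4 of the 9 (log2 fold change 0.91, standard error, SE, 0.22, adjusted p = 0.0101). Of all genes, 7.58% were higher and 21.8% lower without overlap, with 2 of the 9 in each direction. FPKM over all genes had a median log2 difference of -0.0986 here. Sesn2 was 0.44 higher on the log2 scale (adjusted p = 0.0281). Its groups overlapped in FPKM but not in CPM (62.2 to 70.7 in SAP-24h, 42.7 to 54.3 in Sham-24h), and the reverse held for Mdm2, which did not pass. Phlda3 was 0.77 lower (log2 fold change -0.77, adjusted p = 0.0400) with no overlap. Leaving out replicate 1 of SAP-24h, the rat with the highest Btg2 and the lowest Phlda3 level, moved the adjusted p of all 3 to 0.05 or above (0.0863 for Btg2, at 0.59 on the log2 scale, and 0.208 for Phlda3, at -0.51). Phlda3 and Sesn2 each lost the call in 4 of the 6 fits lacking 1 rat, Phlda3 also with no filter on low counts (adjusted p = 0.0582), and all 3 lost it when only these groups were fitted, where 0.0200% of the genes tested were DEGs. Cdkn1a was higher in every SAP-24h rat than in every Sham-24h rat, but the change of 1.34 on the log2 scale (SE 0.46, 2.53-fold) had an adjusted p of 0.0567. Without replicate 2 of Sham-24h it was 2.09 on the log2 scale (adjusted p = 0.0173), and without replicate 1 of Sham-24h it was 0.97. DESeq2, which called 6.16% of the genes it tested, and both limma fits called it.

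Compared with Con-24h, the SAP-24h rats had more Tp53inp1 and less Phlda3, and these 2 of 9 genes were DEGs (6.91% of all genes were, and 22.1% without the fold limit). Tp53inp1 had 5.86, 6.51 and 5.98 FPKM in SAP-24h and 1.95, 3.17 and 3.99 FPKM in Con-24h (log2 fold change 1.14, SE 0.24, adjusted p = 0.00243). Phlda3 had 16.18, 36.11 and 33.23 FPKM against 82.99, 81.53 and 62.9 FPKM (log2 fold change -1.30, SE 0.25, adjusted p = 0.00125). Neither gene's groups overlapped, which held for 3 of the 9 genes and for 32.1% of all genes (9.87% higher and 22.3% lower). Both calls of an adjusted p under 0.05 held in all 6 fits lacking 1 rat. The Tp53inp1 change was under the 2-fold limit without replicate 1 of Con-24h (0.91) and with limma on log2(FPKM + 1) (0.85). Ccng1, Mdm2 and Btg2 rose by 0.86, 0.48 and 0.63 on the log2 scale (adjusted p = 0.00867, 0.0149 and 0.0412, edgeR). These 3 calls were lost in 3, 2 and 3 of the 6 fits with 1 rat left out, and Btg2 was at 0.29 without replicate 1 of SAP-24h. When only these groups were fitted, all 5 calls were lost (1.56% of the genes tested were DEGs). Cdkn1a was at 1.16 (adjusted p = 0.0721), and DESeq2 called it (adjusted p = 0.0351), as it did 7.60% of the genes it tested. The median of the 9 genes was 0.48, against -0.01 over all genes. Tp53inp1, Ccng1 and Mdm2 were also higher than Con-24h in Sham-24h, without taurocholate, by 1.08, 0.86 and 0.53 on the log2 scale. In SAP-24h vs Sham-24h, Tp53inp1 was at 0.06 and Ccng1 at 0.0003 (adjusted p = 0.896 and 0.9996, edgeR). Phlda3 was lower and Btg2 higher in SAP-24h against both control groups.

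The 2 control operations were also compared with each other at 24 hours. In Sham-24h vs Con-24h, Tp53inp1 rose by 1.08 on the log2 scale (adjusted p = 0.0105) and Gdf15 fell 2.00-fold (log2 fold change -1.003, adjusted p = 0.0267), while Mdm2 and Ccng1 rose by 0.53 and 0.86 (adjusted p = 0.0189 and 0.0195, edgeR). DEGs thus numbered 2 of 9 in the set and 1.00% among all genes (9.85% without the fold limit). Gdf15 had 15.33, 5.94 and 8.83 FPKM in Con-24h and 5.11, 4.32 and 5.62 FPKM in Sham-24h, and without replicate 1 of Con-24h its change was -0.55 (adjusted p = 0.219). With 1 rat left out, Gdf15, Mdm2 and Ccng1 each lost the call in 4 of 6 fits (adjusted p up to 0.219, 0.147 and 0.121) and Tp53inp1 in 2 (up to 0.0638). Without replicate 2 of Sham-24h Tp53inp1 kept its call but was under the 2-fold limit, at 0.96. All 4 calls were lost when only these groups were fitted (0.00% of the genes tested were DEGs), and with the replicate number as a block Gdf15 was under the 2-fold limit, at -0.97. Both limma fits also put Gdf15 under that limit (-0.79 and -0.89), and limma on log2(FPKM + 1) did so for Tp53inp1 (0.90). Markers of neutrophils were higher in the same comparison, 2 of 8. Cdkn1a did not pass (log2 fold change -0.18, 95% interval -1.13 to 0.76).

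Markers of blood and lung cells moved with these comparisons. Neutrophil markers (8 of 8 tested, none at 0 in all libraries) summed to 4558 to 16344 FPKM in SAP-24h, 237 to 9354 in Sham-24h and 176 to 1039 in Con-24h, with 6 of 8 higher in SAP-24h vs Con-24h, and T cell markers (6 of 6 tested, none at 0 in all libraries) to 11.7 to 15.8, 41.1 to 59.6 and 24.0 to 106 FPKM, with 5 of 6 lower in SAP-24h vs Sham-24h and 6 of 6 in SAP-24h vs Con-24h. Of 6 macrophage markers 2 were higher in each of these comparisons, with summed levels of 133 to 257 FPKM in SAP-24h, 174 to 179 in Sham-24h and 160 to 169 in Con-24h. Of 6 alveolar type 1 markers 1 was lower in each (summed levels 1373 to 2854, 2787 to 3821 and 2883 to 3863 FPKM), and 1 of 6 endothelial markers was lower against Con-24h. Libraries of rats given taurocholate also had a lower share of uniquely mapped reads in the study's mapping statistics. The part of these differences in the results was not tested.

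Treatment with DEX was compared with SAP and Sham to see whether a glucocorticoid changed the p53 targets. In DEX-6h vs SAP-6h, 0 of the 9 genes were DEGs (0.515% of all genes were), and 3 had an unadjusted p under 0.05 (12.1% of all genes), namely Cdkn1a, Ccng1 and Sesn2. Cdkn1a had 294 ± 61.4 FPKM in DEX-6h and 112 ± 23.3 FPKM in SAP-6h without overlap (17.5% of all genes had none), a log2 fold change of 1.39 (SE 0.46, 95% interval 0.43 to 2.35) with an adjusted p of 0.166. Ccng1 had 29.4, 31.97 and 32.67 FPKM against 16.81, 18.87 and 17.01 FPKM (log2 fold change 0.83, adjusted p = 0.0730). DESeq2, which called 1.05% of the genes it tested, and edgeR fitted to these 6 libraries alone, called Cdkn1a.

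Against Sham-6h, Cdkn1a was the only DEG of the set in DEX-6h, 1 of 9 compared with 3.97% of all genes (9.75% without the fold limit). It rose 4.09-fold (log2 fold change 2.03, SE 0.47, adjusted p = 0.00866), and the call held in all 6 fits lacking 1 rat (1.81 to 2.34 on the log2 scale). Ccng1 rose by 0.77 on the log2 scale (adjusted p = 0.0295), but in none of the 6 fits with 1 rat left out was its adjusted p under 0.05 (0.0514 to 0.106). The other 7 genes did not pass, with Mdm2 at 0.11 (95% interval -0.17 to 0.39), Bax at 0.05, Gdf15 at -0.47 and Tp53inp1 at 0.69. The median of the 9 genes was 0.11, against -0.04 over all genes. Of the cell type markers, 2 of 5 for ciliated cells were higher in this comparison (median of the 5 log2 fold changes 0.92, none at 0 in all libraries), with summed levels of 35.7 to 61.5 FPKM in DEX-6h and 23.8 to 33.3 in Sham-6h. Lower were 1 of 6 each for macrophages, T cells, alveolar type 1 cells and endothelial cells. Their part in the results was not tested.

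At 24 hours Cdkn1a did not pass the test between the DEX and SAP rats, with 146 ± 19.97 and 134 ± 29.9 FPKM (log2 fold change 0.02, 95% interval -0.92 to 0.96). The fall from DEX-6h to DEX-24h missed the threshold (log2 change -0.999, SE 0.46, adjusted p = 0.110), as did the change of the DEX effect between the times (-1.37, adjusted p = 0.357). Sesn2 fell and Tp53inp1 rose in DEX-24h vs SAP-24h, both by less than 2-fold. No gene of the set was therefore a DEG (3.73% of all genes were, 7.71% without the fold limit). In this comparison 5 of 9 had an unadjusted p under 0.05 (23.1% of all genes), and DESeq2 called 0 (5.14% of the genes it tested). Sesn2 had 9.31, 9.25 and 8.14 FPKM in DEX-24h and 12.32, 14.86 and 13.29 FPKM in SAP-24h (log2 fold change -0.69, SE 0.13, adjusted p = 0.00255), and held in all 6 fits with 1 rat left out. Tp53inp1 had 13.21, 8.06 and 12.45 FPKM against 5.86, 6.51 and 5.98 FPKM (log2 fold change 0.79, adjusted p = 0.0400), with an adjusted p under 0.05 in 1 of 6 such fits. With the replicate number as a block its adjusted p was 0.0501, and the call was also lost with no filter on low counts and when only these groups were fitted (adjusted p = 0.125). Against Sham-24h, 0 of 9 genes were DEGs (4.15% of all genes, 6.97% without the fold limit), and 3 had an unadjusted p under 0.05 (19.9% of all genes). Tp53inp1 rose by 0.85 on the log2 scale (adjusted p = 0.0291), but lost the call in 4 of 6 fits with 1 rat left out (adjusted p up to 0.122), with limma on log2(FPKM + 0.1) and when only these groups were fitted. Cdkn1a was at 1.36 (adjusted p = 0.0781) and was called by both limma fits and by DESeq2, which called 5.27% of the genes it tested. It was at 2.11 without replicate 2 of Sham-24h (adjusted p = 0.0108) and at 0.99 without replicate 1 of Sham-24h (adjusted p = 0.304). Lymphocyte markers were DEGs in both comparisons, with 6 of 6 of T cells (median -2.57) and 4 of 5 of B cells (-2.30) lower against Sham-24h, and 0 of 6 (-0.70) and 3 of 5 (-1.83) lower against SAP-24h. They summed to 5.82 to 12.7 FPKM for T cells and 5.44 to 12.2 for B cells in DEX-24h, 41.1 to 59.6 and 21.1 to 49.9 in Sham-24h, and 11.7 to 15.8 and 20.5 to 35.6 FPKM in SAP-24h. The 8 neutrophil markers summed to 1045 to 2985 FPKM in DEX-24h and 4558 to 16344 in SAP-24h, without overlap, and 0 of 8 were DEGs (median -1.72). Summed levels of endothelial markers were 982 to 1126 FPKM in DEX-24h and 909 to 960 in SAP-24h, and those of macrophages 107 to 166 in DEX-24h and 174 to 179 in Sham-24h. Of 6 macrophage markers, however, 1 was called higher and 0 lower against Sham-24h (median -0.41), while 1 was called lower against SAP-24h. In addition, 1 of 5 ciliated cell markers was higher against SAP-24h, and 1 of 6 alveolar type 2 markers was higher against Sham-24h. Their part in the changes was not tested.

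Between DEX-6h and DEX-24h, Mdm2 and Tp53inp1 rose by 0.44 and 0.70 and Sesn2 fell by 0.84 on the log2 scale (adjusted p = 0.0209, 0.0297 and 0.000155, edgeR), so that 3 of 9 genes passed without the fold limit, as did 25.9% of all genes. With 1 rat left out, Sesn2 passed in all 6 fits, Mdm2 in 2 and Tp53inp1 in 1. Mdm2 had 12.01, 11.93 and 12.44 FPKM in DEX-6h and 15.85, 15.92 and 17.01 FPKM in DEX-24h, without overlap, which held for 4 of the 9 genes and for 42.5% of all genes in this comparison. Lymphocyte markers fell in the same comparison, all 6 of T cells (median log2 fold change -2.11, summed level 28.7 to 42.4 FPKM in DEX-6h and 5.82 to 12.7 in DEX-24h) and all 5 of B cells (median -2.52, 33.4 to 60.9 and 5.44 to 12.2 FPKM). Endothelial markers summed to 1404 to 1544 FPKM in DEX-6h and 982 to 1126 in DEX-24h, with 1 of 6 higher. Their part in these changes was not tested.

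Emodin was compared with SAP, DEX and Sham. At 6 hours, 0 of 9 genes were DEGs in Emo-6h vs SAP-6h (0.0251% of all genes were), 4 had an unadjusted p under 0.05 (13.5% of all genes) and DESeq2 called 0 (0.167% of the genes it tested). Cdkn1a had 125 ± 33.3 FPKM in Emo-6h and 112 ± 23.3 in SAP-6h (log2 fold change 0.15, 95% interval -0.79 to 1.09). In Emo-6h vs Sham-6h, 0 of 9 were DEGs (0.477% of all genes, 3.26% without the fold limit), and Sesn2 rose by 0.74 on the log2 scale (adjusted p = 0.00807), with the call lost in 2 of the 6 fits with 1 rat left out and when only these groups were fitted. Of the set, 4 genes had an unadjusted p under 0.05 (22.6% of all genes), and DESeq2 called 0 (1.35% of the genes it tested).

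Gdf15 was higher and Ccng1 lower in Emo-6h than in DEX-6h, and these 2 of 9 genes were DEGs (1.41% of all genes). Gdf15 had 10.22, 10.66 and 15.81 FPKM in Emo-6h and 5.71, 3.51 and 5.46 FPKM in DEX-6h (log2 fold change 1.32, SE 0.28, adjusted p = 0.0129). Without replicate 3 of Emo-6h the change was 1.07, and 2 of 6 fits with 1 rat left out had an adjusted p of 0.05 or above, at most 0.0691. Ccng1 had 11.6, 15.02 and 11.76 FPKM against 29.4, 31.97 and 32.67 FPKM (log2 fold change -1.30, SE 0.22, adjusted p = 0.00362), and held in all 6 fits. Sesn2 rose by 0.63 (adjusted p = 0.0115, a threshold that 2.88% of all genes passed without the fold limit), but lost the call without replicate 1 of DEX-6h (adjusted p = 0.0745). Fitted to these 6 libraries alone, Sesn2 and Gdf15 lost the call (adjusted p = 0.0617 and 0.0701, edgeR). Cdkn1a was at -1.24 (adjusted p = 0.148). The groups did not overlap for 6 of the 9 genes, compared with 21.0% of all genes. Heart muscle markers had a median log2 fold change of -1.80 and macrophage markers of 0.90 in this comparison, with 0 of 6 called in each. The part of these cells in the changes was not tested.

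At 24 hours the emodin rats had less Cdkn1a than the SAP rats and the DEX rats. In Emo-24h vs SAP-24h, Cdkn1a fell 3.30-fold (log2 fold change -1.72, SE 0.46, adjusted p = 0.0262), from 134 ± 29.9 to 44.7 ± 34.3 FPKM without overlap (29.3% of all genes and 4 of the 9 had none, and 6.23% and 2 were lower without overlap). It was the only DEG among the 9 genes (3.19% of all genes, 8.59% without the fold limit), and Btg2 fell with it by 0.97 on the log2 scale (log2 fold change -0.97, SE 0.22, adjusted p = 0.0109), from 138 ± 41.0 to 79.5 ± 3.67 FPKM without overlap. RLE scaling and DESeq2, which called 4.39% of the genes it tested, moved Btg2 past the 2-fold limit. FPKM over all genes had a median log2 difference of 0.108 in this comparison. Single rats set the size of the Cdkn1a change, which was -2.66 without replicate 3 of Emo-24h and -1.43 without replicate 2, and in 3 of the 6 fits with 1 rat left out the adjusted p was 0.05 or above, at most 0.122. Btg2 lost its call in 2 of 6 such fits and was at -0.65 without replicate 1 of SAP-24h (adjusted p = 0.0706). Fitted to these 6 libraries alone, Cdkn1a and Btg2 both lost the call (adjusted p = 0.161 and 0.133, edgeR). In that fit 0 genes of the set were DEGs, and 0.00% of the genes tested.

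In Emo-24h vs DEX-24h, Cdkn1a fell 3.35-fold (log2 fold change -1.74, SE 0.47, adjusted p = 0.0204) and Tp53inp1 fell 2.05-fold (log2 fold change -1.04, SE 0.24, adjusted p = 0.00725), which made 2 of 9 genes DEGs (5.06% of all genes). Cdkn1a had an adjusted p of 0.05 or above in 4 of the 6 fits with 1 rat left out, at most 0.121, was at -2.70 without replicate 3 of Emo-24h, and lost the call when only these groups were fitted (adjusted p = 0.0739). Tp53inp1 had 5.88, 4.73 and 6.51 FPKM in Emo-24h and 13.21, 8.06 and 12.45 FPKM in DEX-24h. Its groups did not overlap, as for 6 of the 9 genes and 29.4% of all genes in this comparison (5 of the 9 and 10.8% lower). It stopped being a DEG in 3 of the 6 fits, at -0.94, -0.99 and -0.93 without DEX-24h replicate 1, DEX-24h replicate 3 and Emo-24h replicate 2, and in the last its adjusted p was 0.0542. Both limma fits also put it under the 2-fold limit, at -0.85 and -0.95. Against Sham-24h, no gene of the set passed in Emo-24h (0.00% of all genes were DEGs, in edgeR and in DESeq2; 0 of 9 genes and 3.00% of all genes had an unadjusted p under 0.05), with Cdkn1a at -0.38 (95% interval -1.33 to 0.56).

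Markers of cell types moved with these comparisons too. Of 6 alveolar type 2 markers 1 was lower in Emo-24h vs DEX-24h. Heart muscle markers had a median log2 fold change of 1.73 in Emo-24h vs SAP-24h, with 0 of 6 called. Lymphocyte markers summed to 15.2 to 58.1 FPKM for T cells in Emo-24h and 5.82 to 12.7 FPKM in DEX-24h, and to 38.0 to 66.8 and 5.44 to 12.2 FPKM for the 5 B cell markers. All 6 and all 5 were higher in Emo-24h vs DEX-24h, and 2 of 6 T cell markers in Emo-24h vs SAP-24h. Neutrophil markers summed to 4377 to 6737 FPKM in Emo-24h, above DEX-24h (1045 to 2985) without overlap, with 1 of 8 called higher (median 0.84), and overlapped with SAP-24h (4558 to 16344 FPKM, median -0.81, 0 of 8 called). B cell markers summed to 20.5 to 35.6 FPKM in SAP-24h, below Emo-24h, and red blood cell markers to 288 to 1343 FPKM in Emo-24h and 1360 to 1668 in DEX-24h. None of the defining markers was at 0 in all libraries. The part of these cells in the changes of Cdkn1a and Tp53inp1 was not tested.

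Within the emodin groups the set changed in both directions with time. In Emo-24h vs Emo-6h, Gdf15, Cdkn1a and Sesn2 fell by 1.05, 1.50 and 1.18 on the log2 scale (adjusted p = 0.00578, 0.0150 and 9.39e-06, edgeR), and these 3 of 9 genes were DEGs (9.41% of all genes). Bax fell by 0.61, and Ccng1 and Mdm2 rose by 0.84 and 0.47 (adjusted p = 0.00252, 0.00613 and 0.0104, edgeR), so that 6 of 9 passed without the fold limit, as did 34.1% of all genes. Sesn2 had 25.5, 22.5 and 26.87 FPKM in Emo-6h and 11.05, 12.92 and 10.13 FPKM in Emo-24h, and its call held in all 6 fits with 1 rat left out. Cdkn1a was at -2.43 without replicate 3 of Emo-24h and had an adjusted p of 0.05 or above in 3 of 6 fits, at most 0.0794, and 0.0693 when only these groups were fitted. Gdf15 was under the 2-fold limit in 2 of 6 fits, at -0.99 without replicate 3 of Emo-24h and -0.83 without replicate 3 of Emo-6h, and Mdm2 lost its call in 1 (adjusted p = 0.0736 without replicate 1 of Emo-6h, edgeR). Gdf15 was also under that limit in both limma fits, at -0.88 and -0.97. Red blood cell markers fell in the same comparison, 4 of 4 tested (median -3.41), and summed to 2985 to 7347 FPKM in Emo-6h and 288 to 1343 FPKM in Emo-24h, with none at 0 in all libraries. Their r with Cdkn1a over the 30 libraries was 0.21 to 0.38, and 0.34 to 0.50 without the 6 DEX libraries. Neutrophil markers summed to 1486 to 3859 FPKM in Emo-6h and 4377 to 6737 in Emo-24h, without overlap, and 0 of 8 were DEGs (median 0.41). Endothelial markers summed to 1152 to 1725 and 826 to 1008 FPKM, with 1 of 6 lower. Their part in the changes was not tested. Sesn2 also fell with time in the SAP rats, by 0.47 on the log2 scale (adjusted p = 0.0342, lost in 4 of 6 fits with 1 rat left out, with no filter and when only these groups were fitted), where 0 of 9 genes were DEGs (2.42% of all genes, 6.01% without the fold limit), and 4 had an unadjusted p under 0.05 (24.8% of all genes). Sham-24h vs Sham-6h (0.257%) and Con-24h vs Con-6h (0.00628% of all genes) had no DEG of the set, with 5 and 2 genes at an unadjusted p under 0.05 (20.4% and 10.5% of all genes). In the SAP, Sham and Con time comparisons DESeq2 called 0 of 9 genes, and 3.85%, 1.22% and 0.679% of the genes it tested. In SAP-24h vs SAP-6h, 3 of 4 red blood cell and 3 of 6 T cell markers were lower, and neutrophil markers summed to 4558 to 16344 FPKM at 24 hours and 2009 to 4492 at 6 hours, which was not tested as a part of the change in Sesn2. DEX-24h vs DEX-6h had no DEG either (7.14% of all genes), with 4 genes at an unadjusted p under 0.05 (37.8% of all genes) and 0 called by DESeq2 (7.61% of the genes it tested).

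Interaction contrasts tested whether an effect differed between the times. None of the 9 genes passed with the fold limit for SAP vs Sham (0.0314% of all genes did), DEX vs SAP (0.138%) or emodin vs SAP (1.68%, and 3.57% without the fold limit). At an unadjusted p under 0.05 there were 0, 2 and 6 of 9 (12.6%, 13.6% and 23.4% of all genes), and DESeq2 called 0, 0 and 2 (0.994%, 1.37% and 3.95% of the genes it tested). The effect of emodin relative to SAP on Sesn2 differed by -0.71 (SE 0.18, adjusted p = 0.0371). This call was lost in 9 of the 12 fits with 1 rat left out, in both limma fits and when only the groups compared were fitted (adjusted p = 0.137). For Cdkn1a this difference was -1.87 (95% interval -3.22 to -0.53, adjusted p = 0.0862) and for Btg2 -0.97 (adjusted p = 0.0679).

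Whether Cdkn1a moved with the other genes was then examined across libraries. Pearson's r and Spearman's rho were computed on log2 CPM for Cdkn1a and each of the 8 other genes, with permutation tests (100000 permutations, two-sided) adjusted over the 8 pairs. Except for deviations from the group means, libraries were permuted without regard to group or time. Those p-values treat the libraries as exchangeable, although they differed by group and time. Only Btg2 followed Cdkn1a by both measures, with r = 0.74 (adjusted permutation p = 8e-05, where the unadjusted 1e-05 is the smallest the permutations can give) and rho = 0.77 (adjusted permutation p = 0.00016) over the 30 libraries. Its r was 0.68 without the 2 libraries farthest from the median of Cdkn1a, 0.81 within the 15 libraries at 6 hours, 0.76 within the 15 at 24 hours, 0.74 without the 6 DEX libraries, and 0.59 for deviations from the group means (adjusted permutation p = 0.0016, permuted within groups). When permuted within groups, no other gene of the set passed with Cdkn1a, by r or by rho.

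Tp53inp1 (r = 0.44, adjusted permutation p = 0.0624; rho = 0.60, adjusted permutation p = 0.0024) followed in rank only, and at 6 hours also by r (adjusted permutation p = 0.0293, n = 15). As deviations from the group means it passed by neither (r = 0.37, rho = 0.45, adjusted permutation p = 0.141 and 0.122). Bax (r = 0.41, rho = 0.40, adjusted permutation p = 0.0624 and 0.0819), Ccng1 (r = 0.34, rho = 0.37, adjusted permutation p = 0.122 and 0.0946) and Sesn2 (r = 0.26, rho = 0.27, adjusted permutation p = 0.218 and 0.203) did not pass. Mdm2 (r = 0.03, rho = 0.16), Gdf15 (r = -0.10, rho = -0.15) and Phlda3 (r = -0.33, rho = -0.29) had adjusted permutation p-values of 0.122 to 0.880. Without the 2 libraries farthest from the median of Cdkn1a, r was 0.49 for Tp53inp1, 0.27 for Bax, 0.42 for Ccng1, 0.21 for Sesn2, 0.16 for Mdm2, -0.25 for Gdf15 and -0.41 for Phlda3. At 6 hours r was 0.66 for Tp53inp1, 0.16 for Bax, 0.57 for Ccng1, 0.14 for Sesn2, 0.29 for Mdm2, -0.30 for Gdf15 and -0.34 for Phlda3, and at 24 hours 0.50, 0.41, 0.51, -0.09, 0.25, -0.15 and -0.42. By rank, the 15 libraries at 24 hours gave rho = 0.74 for Tp53inp1 and 0.61 for both Ccng1 and Mdm2 (adjusted permutation p = 0.0088, 0.0364 and 0.0364), although their r did not pass. The DEX libraries mattered for several pairs. Without them r was -0.03 for Ccng1 and 0.24 for Tp53inp1, whereas it was 0.53 for Sesn2 (rho = 0.53, adjusted permutation p = 0.0270 and 0.0354) and 0.48 for Bax, which passed by r but not by rank (rho = 0.43, adjusted permutation p = 0.0493 and 0.0714).

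**Figure D3:**
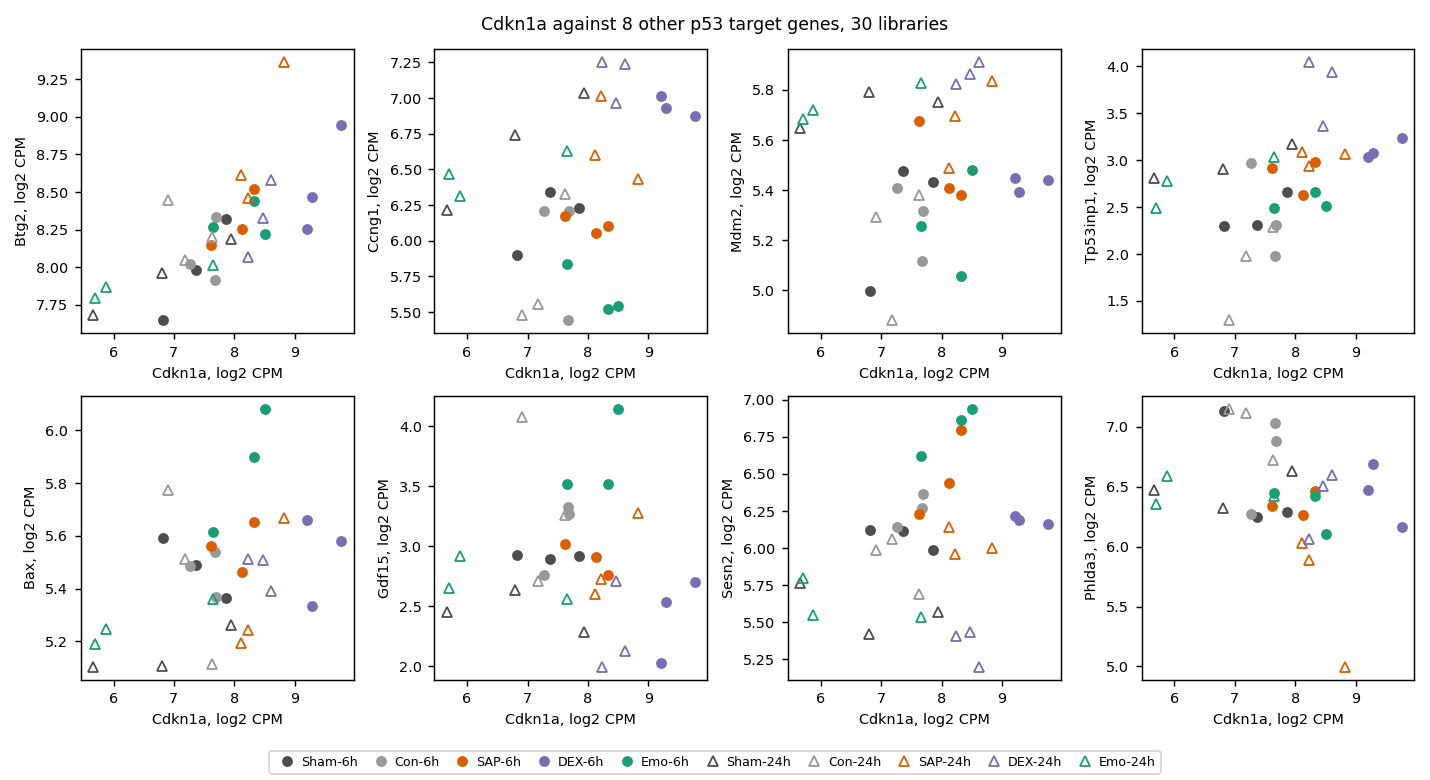
Log2 CPM of Cdkn1a (horizontal axis) and of each other gene (vertical axis) in the 30 libraries. Colour gives the treatment, filled circles 6 hours and open triangles 24 hours. Btg2 follows Cdkn1a (r = 0.74), and Mdm2 does not (r = 0.03).

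Among the remaining pairs, Ccng1, Tp53inp1 and Mdm2 formed a second pattern, with r = 0.81 for Ccng1 and Tp53inp1, 0.73 for Ccng1 and Mdm2 and 0.68 for Tp53inp1 and Mdm2. Gdf15, Sesn2 and Bax formed another, with r = 0.57 for Gdf15 and Sesn2, 0.54 for Gdf15 and Bax and 0.65 for Sesn2 and Bax. These groups of genes ran against each other, most of all Ccng1 and Gdf15 (r = -0.79, rho = -0.80) and Gdf15 and Tp53inp1 (r = -0.70). As deviations from group means these pairs were weaker, with r = 0.59 for Ccng1 and Tp53inp1, -0.38 for Ccng1 and Gdf15 and -0.01 for Gdf15 and Sesn2, so that between rats of the same group Gdf15 and Sesn2 did not go together. Some pairs between the patterns did not only weaken. Mdm2 changed sign with Gdf15 (from -0.43 to 0.39) and with Bax (from -0.37 to 0.05). Bax with Tp53inp1 went from -0.19 to -0.25. These patterns were chosen after their values were seen and are given as a description of 36 pairs, without a test.

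**Figure D4:**
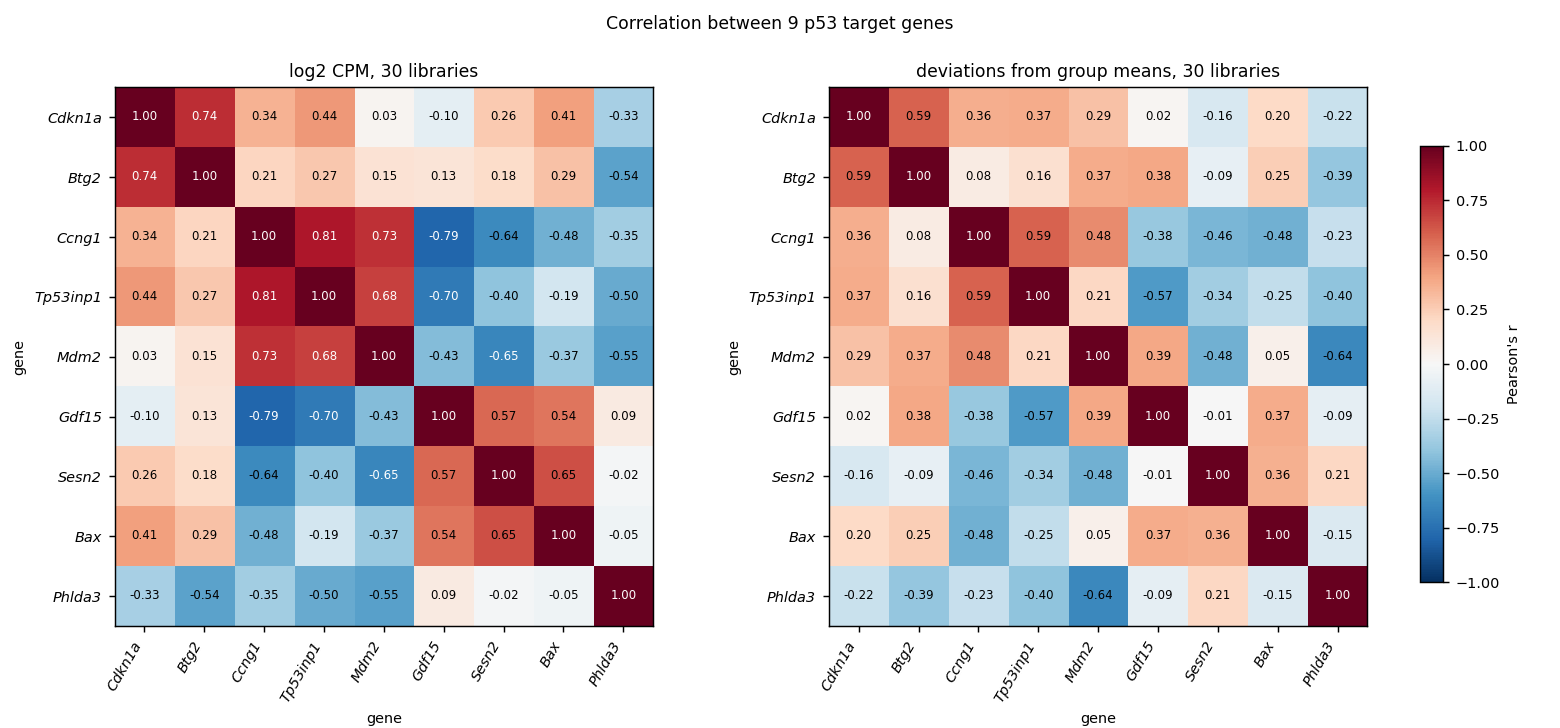
Pearson's r between the 9 genes on log2 CPM over 30 libraries (left) and on deviations from the group means (right). Both axes list the genes, and colour and numbers give r. Cdkn1a with Btg2 has r = 0.74 and 0.59, and Ccng1 with Gdf15 -0.79 and -0.38.

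The genes most like Cdkn1a were not p53 targets of the set. Among 12367 genes with a symbol and a mean of at least 1 FPKM, the highest Pearson's r with Cdkn1a over the 30 libraries were those of Ube2g2, a ubiquitin-conjugating enzyme (r = 0.95), Map3k6, a stress-activated kinase (0.94), Spsb1, a SOCS box protein (0.93), Errfi1, a feedback inhibitor of the EGF receptor (0.93), and Agfg2 (0.93). Btg2 had rank 245, Tp53inp1 rank 1697 and Mdm2 rank 5563. Errfi1 had 186 ± 18.4 FPKM in DEX-6h, 79.0 ± 18.3 in SAP-6h and 45.7 ± 9.42 in Sham-6h, and 92.8 ± 8.64, 74.7 ± 12.3 and 31.7 ± 13.1 FPKM in DEX-24h, SAP-24h and Emo-24h. As for Cdkn1a, DEX-6h was highest, DEX-24h next and Emo-24h lowest of these groups, while SAP-6h was above SAP-24h for Errfi1 and below it for Cdkn1a.

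Gene lists written for other responses are described by their r with Cdkn1a, beside a median of -0.02 over all genes and 10.1% of genes with r over 0.5. Known glucocorticoid target genes (13 rows of 12 genes, Tsc22d3 having more than 1 row) had a median r of 0.77 with 10 over 0.5, and a median of 0.71 without the DEX libraries. Integrated stress response genes had a median of 0.58, with 6 of 11 over 0.5, and reached from -0.80 (Vldlr, a lipoprotein receptor) to 0.81 (Cebpb). Sesn2 belongs to this list and to the p53 targets alike. For 25 other p53 targets the median was -0.04, with 3 over 0.5, and the values reached from -0.70 (Fas), -0.66 (Ak1) and -0.62 (Rrm2b) to 0.61 (Sesn1). Neither p53 and its regulators (8 genes, median 0.10) nor cell division genes (12 genes, median -0.00303) held a gene over 0.5. These lists share libraries and genes are not independent, so no test was made.

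**Figure D5:**
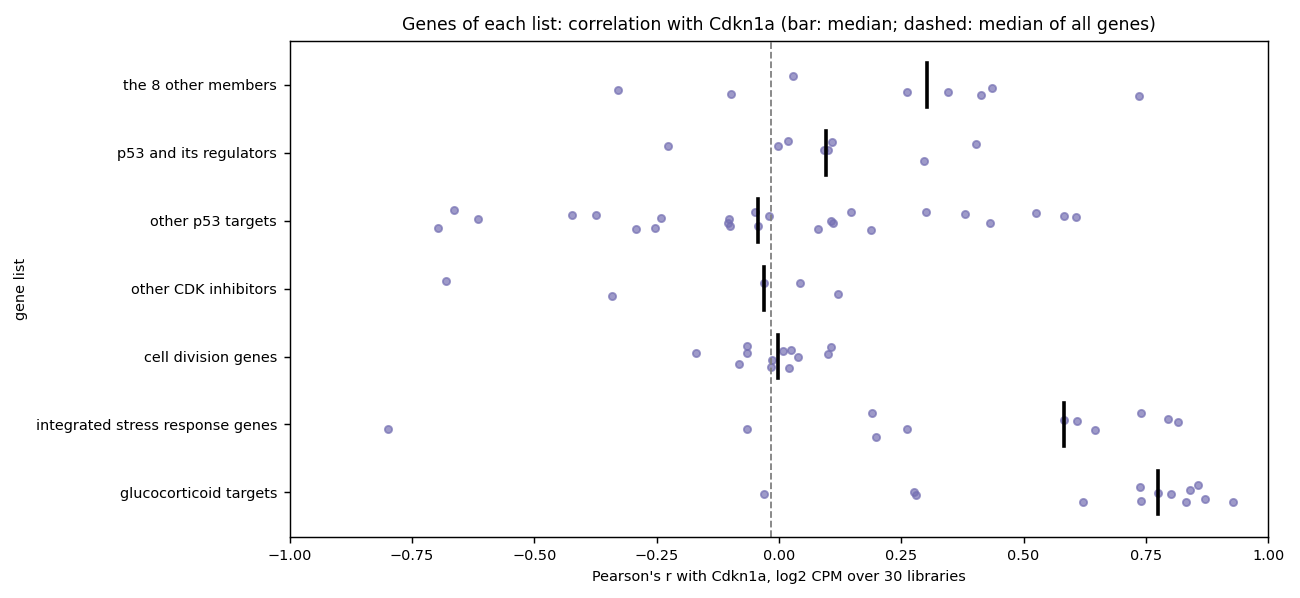
Pearson's r with Cdkn1a (horizontal axis, log2 CPM, 30 libraries) for the genes of 7 lists (rows). Points are genes, bars list medians and the dashed line the median of all genes (-0.02). The glucocorticoid targets have the highest median (0.77), and the other p53 targets spread from -0.70 to 0.61 around a median of -0.04.

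The same lists were followed in the 4 comparisons in which Cdkn1a was a DEG. In DEX-6h vs Sham-6h, 5 of 13 glucocorticoid target rows were higher and 0 lower (2.25% of all genes were higher and 1.73% lower; median log2 fold change 1.04), among them Errfi1 (2.07), Fkbp5, a co-chaperone of the glucocorticoid receptor (2.01), Pdk4 (1.69) and Mt2A (3.27). Of 28 other p53 targets, Pmaip1, which promotes apoptosis, was higher (1.41) and the death receptor gene Fas lower (-1.11), with a median of -0.06, and Tp73 (1.13) was the DEG among 11 genes of p53 and its regulators. Of 12 integrated stress response genes, Ppp1r15a (1.08) and Cebpb (1.08) were higher and 0 lower (median 0.38). Of 6 other inhibitors of cyclin-dependent kinases, Cdkn2b was lower (-1.55), and 0 of 14 cell division genes were DEGs (median -0.75). In Emo-24h vs DEX-24h, 8 of 13 glucocorticoid rows were lower and 0 higher (1.24% and 3.82% of all genes; median -1.22), with Fkbp5 at -2.19, Errfi1 at -1.60 and Sgk1 at -1.57, while 0 of 28 other p53 targets, 0 of 11 regulators, 0 of 12 integrated stress response genes, 0 of 6 kinase inhibitors and 0 of 14 cell division genes were DEGs (at an adjusted p under 0.05 alone, 2 of the other p53 targets were higher). In Emo-24h vs SAP-24h, 2 of 13 glucocorticoid rows (Mt2A at -4.25 and Errfi1 at -1.39) and 3 of 12 integrated stress response genes were lower (1.26% of all genes), the latter being Cebpb (-1.48), Atf4 (-1.07) and Ppp1r15a (-1.02), and of the other p53 targets Gadd45a was lower (-1.20). The 12 integrated stress response genes had a median of -0.75 there. At an adjusted p under 0.05 alone, 2 of the other p53 targets were higher and 1 lower in Emo-24h vs SAP-24h. By that measure 2 of 11 regulators were higher and 0 lower (3.56% and 5.02% of all genes).

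In SAP-24h vs Sham-24h, where Cdkn1a was just outside the threshold, 3 of 12 integrated stress response genes were higher (1.98% of all genes), namely Cebpb (1.55), Ppp1r15a (1.29) and Atf4 (1.28), with a median of 0.84 over the list. Gadd45a, a growth arrest gene, was the DEG among the 28 other p53 targets (1.05, higher), of which the median was -0.00042. Mt2A (5.55) was the DEG of the 13 glucocorticoid rows, and the list median was 0.16. None of the 14 cell division genes was a DEG in SAP-24h vs Sham-24h. In SAP-24h vs Con-24h, where Cdkn1a was also just outside the threshold, 3 of 28 other p53 targets were higher and 0 lower (3.65% and 3.26% of all genes; median 0.14), namely Cd80, a T cell costimulatory ligand (1.38), Gadd45a (1.28) and Pmaip1 (1.02). At an adjusted p under 0.05 alone 5 were higher and 1 lower (12.1% and 10.0% of all genes). Slc7a11, a cystine transporter, was the DEG of the 12 integrated stress response genes (2.39, higher; list median 0.63) and Mt2A that of the 13 glucocorticoid rows (4.33; list median 0.29). None of the regulators, the kinase inhibitors and the cell division genes was a DEG there.

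In Emo-24h vs Emo-6h, the fourth comparison in which Cdkn1a was a DEG, most lists had DEGs, as did 9.41% of all genes (6.33% higher and 3.08% lower). Of 14 cell division genes 7 were lower and 0 higher (median log2 fold change -1.32), among them Plk1, a mitotic kinase (-1.91), Mcm5, a replication helicase subunit (-1.78), and the proliferation marker Mki67 (-1.49). The list had negative medians with time in the other treatments too, -1.11 in Sham, -1.63 in Con, -1.07 in SAP and -0.92 in DEX, with 0, 0, 1 and 3 genes called lower. Among all genes, 0.0126%, 0.00%, 1.74% and 3.91% were called lower in these comparisons. Of 11 genes of p53 and its regulators 4 were higher, including the kinases Atm (1.19) and Atr (1.23) and the p53 inhibitor Mdm4 (1.01). Of 28 other p53 targets, Fas was higher (1.20) and Tnfrsf10b lower (-1.34), with a median of 0.08. Lower were also 5 of 13 glucocorticoid rows (median -0.93) and 3 of 12 integrated stress response genes (median -0.93), of which Sesn2 is one.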

How the data were processed

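Lungs of 30 rats were sequenced by the authors as directional paired-end libraries of polyadenylated RNA. Per the study's methods, adaptors and low-quality bases were clipped, reads were aligned with TopHat2 to the Ensembl rat genome (rat_ensembl_v6) and multi-mapped reads were discarded. The counting program is not given in the sources used here. The authors deposited read counts for 22914 genes and FPKM values, rounded to 2 decimals, for 22907. Library depth was 16813949 to 34692306 reads on genes, and each library is 1 rat.

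Counts were fitted here with edgeR 4.0.16 in R 4.3.3 (TMM scaling, filterByExpr with a minimum of 10 reads and 15 in total, 1 quasi-likelihood fit of all 30 libraries, 20 residual degrees of freedom), which left 15934 genes, for 21 pairwise and 3 interaction contrasts. FPKM values were used for levels. Correlations used log2 CPM (prior count 2), with permutations in Python. In data simulated for SAP-24h vs Sham-24h over 15934 genes, 65 of 100 genes changed 2-fold and 91 of 100 changed 4-fold were recovered, and 6 unchanged genes were called. Alternatives were RLE scaling, DESeq2 1.42.0, limma 3.58.1 on log2(FPKM + 1) and log2(FPKM + 0.1), no filter, a replicate block, fits of only the groups compared, and leaving out each rat. The members and gene lists were chosen with earlier results of these data known. Genes named outside the 9 are the DEGs of those lists and the 5 with the highest r with Cdkn1a. Replicate numbers were not treated as pairs.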

Additional observations from a re-analysis of the deposited data

Results flagged for a closer look

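Sesn2 was picked out because the effect of emodin relative to SAP differed between the times. The interaction contrast was -0.712 on the log2 scale (adjusted p = 0.0371, edgeR), and its adjusted p was 0.05 or above in 9 of the 12 fits lacking 1 rat. Bax was picked out because every Emo-6h rat (38.22, 32.74 and 43.41 FPKM) lay above every DEX-6h rat, whereas every Emo-24h rat (26.2, 24.74 and 26.23 FPKM) lay below every DEX-24h rat. In CPM the groups overlapped at 6 hours (49.0 to 67.7 in Emo-6h, 40.2 to 50.5 in DEX-6h) but not at 24 hours. Groups without overlap in FPKM were common, 21.0% of all genes at 6 hours and 29.4% at 24 hours. The log2 effects differed by -0.553 between the times, and this difference was not tested.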

How the results depend on the processing

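Of 53 fold changes of single genes, 0 reversed under RLE scaling, DESeq2, no filter, the replicate block, limma or fits of only the groups compared, but calls of an adjusted p under 0.05 were lost, 23 in the last (which has fewer libraries), 3 with no filter (Phlda3 in SAP-24h vs Sham-24h, Tp53inp1 in DEX-24h vs SAP-24h, Sesn2 in SAP-24h vs SAP-6h), 1 with the block, and 4 and 5 with limma on log2(FPKM + 1) and log2(FPKM + 0.1). Both limma fits lost Sesn2 in SAP-24h vs Sham-24h and in the emodin interaction, and Mdm2 and Btg2 in SAP-24h vs Con-24h. The 53 were the changes with an adjusted p under 0.05 in the main fit and all pairwise changes of Cdkn1a. Most were thus chosen for lying clear of 0, so the lack of reversals says little. Over all 189 pairs of gene and comparison, 10 had opposite signs in mean log2(FPKM + 1) and in edgeR. Their absolute log2 fold change was at most 0.117 (adjusted p at least 0.568, edgeR). Counts of DEGs among the 9 genes moved as follows. With the fold minimum dropped they were 3 in Emo-6h vs DEX-6h, 2 in DEX-6h vs Sham-6h, 1 in Emo-6h vs Sham-6h, 3 in SAP-24h vs Sham-24h, 5 in SAP-24h vs Con-24h, 4 in Sham-24h vs Con-24h, 2 in DEX-24h vs SAP-24h, 2 in Emo-24h vs SAP-24h, 1 in DEX-24h vs Sham-24h, 1 in SAP-24h vs SAP-6h, 3 in DEX-24h vs DEX-6h, 6 in Emo-24h vs Emo-6h and 1 in the emodin interaction. With unadjusted p-values and the fold minimum, counts of 0 became 1 in DEX-6h vs SAP-6h, DEX-24h vs Sham-24h, SAP-24h vs Sham-24h and the DEX interaction (2.97%, 7.63%, 8.34% and 4.85% of all genes), and 2 in the emodin interaction (8.78%), and counts of 2 became 3 in Emo-6h vs DEX-6h and SAP-24h vs Con-24h (5.23% and 9.13%). DESeq2 gave 1, 1 and 1 in the first 3 of these, 2 in the emodin interaction, 3 in SAP-24h vs Con-24h (Cdkn1a besides the 2) and 2 in Emo-24h vs SAP-24h (4.39% of the genes it tested), where RLE scaling also gave 2 (3.20% of all genes). Fits of only the groups compared gave 1 in DEX-6h vs SAP-6h, Emo-6h vs DEX-6h, Emo-24h vs DEX-24h and DEX-24h vs DEX-6h (0.646%, 0.597%, 5.40% and 7.03% of the genes they tested), 2 in Emo-24h vs Emo-6h (in place of 3, without Cdkn1a; 8.75%), and 0 in SAP-24h vs Con-24h, Sham-24h vs Con-24h and Emo-24h vs SAP-24h (1.56%, 0.00% and 0.00%). Limma on log2(FPKM + 1) gave 1 in SAP-24h vs Sham-24h, SAP-24h vs Con-24h, Emo-24h vs DEX-24h and DEX-24h vs Sham-24h (2.14%, 3.24%, 2.72% and 2.02% of all genes) and 0 in Sham-24h vs Con-24h (0.176%), and on log2(FPKM + 0.1) it gave 1 in SAP-24h vs Sham-24h, Sham-24h vs Con-24h, Emo-24h vs DEX-24h and DEX-24h vs Sham-24h (4.85%, 0.791%, 4.90% and 4.04%). Both limma fits gave 2 in place of 3 in Emo-24h vs Emo-6h (3.09% and 8.15%), with Gdf15 under the 2-fold limit (-0.88 and -0.97). The cause of these shifts was not tested.

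Same-numbered rats deviated together (every pair over 0.1) in 1 of 21 comparisons, with correlations of -0.363 to 0.359, so the numbers were not taken as pairs. The replicate block gave 1 DEG in place of 2 in Sham-24h vs Con-24h (0.954% of all genes) and moved no other count beyond 1.5 times. There Gdf15 was no longer a DEG (-0.97, under the 2-fold limit). The adjusted p of 1 single gene moved to 0.05 or above, that of Tp53inp1 in DEX-24h vs SAP-24h (0.79, adjusted p = 0.0501).

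With 1 rat left out, the counts were 1 to 2 in Emo-6h vs DEX-6h, 0 to 2 in SAP-24h vs Sham-24h, 1 to 3 in SAP-24h vs Con-24h, 0 to 3 in Sham-24h vs Con-24h, 0 to 2 in Emo-24h vs SAP-24h and in Emo-24h vs DEX-24h, 0 to 1 in DEX-24h vs Sham-24h and in the emodin interaction, and 1 to 3 in Emo-24h vs Emo-6h. The log2 fold change of Cdkn1a changed sign in 6 comparisons in which it was not called: -0.433 to 0.0857 in Sham-6h vs Con-6h, -0.0249 to 0.369 in Emo-6h vs SAP-6h, -0.930 to 0.191 in Sham-24h vs Con-24h, -0.117 to 0.279 in DEX-24h vs SAP-24h, -1.31 to 0.361 in Emo-24h vs Sham-24h and -1.07 to 0.0392 in Sham-24h vs Sham-6h.

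The r of Cdkn1a with Mdm2 was -0.101 on log2(FPKM + 1), -0.0999 on log2(FPKM + 0.1) and -0.0854 without the 6 DEX libraries. Without those libraries r was also -0.0280 for Ccng1, 0.289 for Gdf15, 0.479 for Bax and 0.535 for Sesn2. Tp53inp1 had as few as 55 reads in a library, which limits its precision.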
